A study of Homo sapiens with 24 samples.

Results

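The translation factors described here are the proteins, outside the ribosome itself, that start, extend and end a polypeptide chain. Of their genes 48 are covered, without for example EIF2S1, EEF1A2 and GSPT2, which are counted below with other genes tied to translation. The 48 were picked by name from a list of initiation, elongation and termination factors and found among the 60609 gene rows of the deposited table. By role they are 6 genes for start codon selection and the ternary complex, 5 for the exchange factor eIF2B, 13 subunits of eIF3, 12 genes for cap binding, its helpers and inhibitors and poly(A) binding, 7 for elongation and 5 for termination and recycling. RNA came from A549 cells, an established human line from a lung adenocarcinoma. Every culture was transfected for 48 h, either with a pool of siRNAs against BOP1, a ribosome biogenesis factor (siBOP1), or with an siRNA against firefly luciferase (siFLuc), used as the control. The cells then received interferon beta at 1000 U/mL (IFN) or a mock treatment for 8 h or 12 h. This gives 8 groups of 3 libraries: siFLuc mock, siFLuc IFN, siBOP1 mock and siBOP1 IFN, each at 8 h and at 12 h. All groups share the cell line, the transfection and a stranded mRNA library kit, and no untransfected culture was analysed here. The study's title asks how ribosome biogenesis bears on translation under IFN, and these libraries measure transcript levels, not translation or protein.

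Translation starts when a small ribosomal subunit carrying the initiator tRNA in the ternary complex, with eIF1, eIF1A, eIF3 and eIF5, is brought to the capped end of an mRNA by eIF4F, made of the cap-binding protein eIF4E, the scaffold eIF4G and the helicase eIF4A. The eIF4E-binding proteins block that step when mTORC1 is off, and phosphorylation of eIF2 blocks the exchange factor eIF2B, for example through the interferon-induced kinase EIF2AK2 (PKR). During elongation eEF1A brings tRNAs and eEF2 moves the ribosome along, and eRF1 and eRF3 release the finished chain. Many mRNAs of the translation machinery begin with a C and a run of pyrimidines, the 5′ terminal oligopyrimidine motif, through which mTORC1 controls their translation.

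Values are in TPM, a transcript abundance corrected for length that sums to 1000000 in each library, so levels of different genes can be compared, but a strong rise of some transcripts lowers all others. Changes are differences of log2(TPM + 1), which understates the change of low genes, from limma over the 16062 genes that reached 1 TPM in 3 or more libraries. A gene is said to have risen or fallen where its Benjamini-Hochberg adjusted p over those genes was under 0.05. Per library, 13844 to 14509 genes reached 1 TPM, and the sequencing depth is unknown. Library values are always listed in the order of the column numbers 1, 2 and 4. BOP1 in siBOP1 cells was at 28.1%, 23.5%, 29.6% and 24.1% of siFLuc cells (mock 8 h, mock 12 h, IFN 8 h, IFN 12 h), with no overlap (exact permutation test, two-sided, p = 0.1 each, the smallest that 3 against 3 libraries allow). IFIT1, an interferon-stimulated gene, rose under IFN by log2 changes of 8.72, 8.39, 8.98 and 8.69 (siFLuc 8 h and 12 h, siBOP1 8 h and 12 h). The epithelial keratins KRT7, KRT8 and KRT18 stood between 1162 and 3803 TPM, and EPCAM only between 1.92 and 5.48 TPM. Of 14 fibroblast, leukocyte and endothelial markers, 12 were below 1 TPM in every library, the others being COL1A1 (5.37 to 19.3 TPM) and CD14 (1.81 to 5.26 TPM). The libraries numbered 4 stood apart from those numbered 1 and 2, most at 12 h, so counts from the libraries numbered 1 and 2 alone are given beside the counts from all. In bulk RNA, fewer cells that hold a transcript and less of it per cell cannot be told apart.

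The annotated 5′ ends of the transcripts separate the factors into those that open with a pyrimidine tract and those that do not. The windows below hold 10 bases before and 20 bases from the RefSeq start (GRCh38.p14), on the transcript's strand, with the tract in capitals, and they show the factors with a tract and 3 abundant ones without. EIF3L, PABPC4, EIF3A and EIF3E, which also fell, have no entry in that table and are not shown. The first 6 had a tract and fell under IFN at 12 h in siFLuc cells.
EIF4B, chr12:53006446-53006475, plus strand: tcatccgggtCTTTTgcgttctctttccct
EEF1B2, chr2:206159885-206159914, plus strand: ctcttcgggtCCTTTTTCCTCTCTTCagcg
EEF1A1, chr6:73521013-73521042, minus strand: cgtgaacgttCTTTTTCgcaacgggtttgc
EIF3F, chr11:7987327-7987356, plus strand: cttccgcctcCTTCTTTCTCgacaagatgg
EIF3K, chr19:38619178-38619207, plus strand: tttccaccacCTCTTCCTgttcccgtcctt
EIF4A2, chr3:186783567-186783596, plus strand: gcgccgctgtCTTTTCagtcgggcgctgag
The next 4 had a tract and did not pass the test in any IFN comparison.
EEF2, chr19:3985444-3985473, minus strand: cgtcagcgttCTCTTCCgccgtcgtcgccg
EIF3M, chr11:32583821-32583850, plus strand: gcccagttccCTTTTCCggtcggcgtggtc
EIF3D, chr22:36529147-36529176, minus strand: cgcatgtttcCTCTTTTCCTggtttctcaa
EIF2S3, chrX:24054946-24054975, plus strand: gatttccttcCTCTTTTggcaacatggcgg
The last 3 had no tract at this base, and of them EIF1 and EEF1G fell under IFN at 12 h and EIF4A1 did not.
EIF1, chr17:41688875-41688904, plus strand: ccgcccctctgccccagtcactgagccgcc
EEF1G, chr11:62573872-62573901, minus strand: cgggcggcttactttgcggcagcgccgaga
EIF4A1, chr17:7572815-7572844, plus strand: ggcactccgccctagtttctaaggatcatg
A tract was counted where the first annotated base was a C followed by at least 4 bases that were C or T, on the transcript's strand only. Some factors have more than 1 annotated start, and a tract at any of them placed the factor with the tract group. EEF1B2 has another start, with its window at chr2:206159599-206159628, that has no tract. A tract was found for 10 of the 38 factors in the promoter table (26.3%) and for 813 of the 10989 tested genes there (7.40%). The annotated starts may not be those used in A549 cells, and a match is a description of letters, not of a working element.

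The 48 genes spanned almost 3 orders of magnitude. EEF1A1, which brings aminoacyl-tRNA to the ribosome, was the highest of them with 4508 to 7077 TPM (median 5674) over the 24 libraries, and it made up 30.1% to 34.4% of the factors' summed TPM. Next came EEF1G, a subunit of its exchange complex, with 1078 to 1471 TPM (median 1298), and the helicase EIF4A1 with 906 to 1305 TPM (median 1092), and the ranges of EEF1G and EIF4A1 overlapped while that of EEF1A1 lay above both. EIF5A, EEF1B2, EIF1, EEF2 and EEF1D followed with medians of 908, 760.5, 717, 670.4 and 642 TPM. Neighbours in this order overlapped in range, while EIF5A (lowest 788 TPM) lay above EEF1D (highest 717 TPM) in every library. At the low end were EEF2K, the kinase that inactivates eEF2, with 4.48 to 9.74 TPM (median 6.67), and the eIF4E-binding protein EIF4EBP2 with 8.78 to 18.0 TPM (median 13.2). Members of one complex did not share one level: within eIF3 the medians ran from 82.9 TPM for EIF3J, a loosely bound subunit, to 559 TPM for EIF3K, and within eIF2B from 17.6 TPM for EIF2B3 to 75.1 TPM for EIF2B2. The cap-binding protein EIF4E (71.7 TPM) had a lower median than its inhibitor EIF4EBP1 (96.6 TPM) and the scaffold EIF4G1 (147 TPM). How reads shared with copies such as EIF3CL for EIF3C, or the EEF1A1 pseudogenes, were assigned is not given in the sources used here, so these levels are uncertain to that extent.

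**Figure D1:**
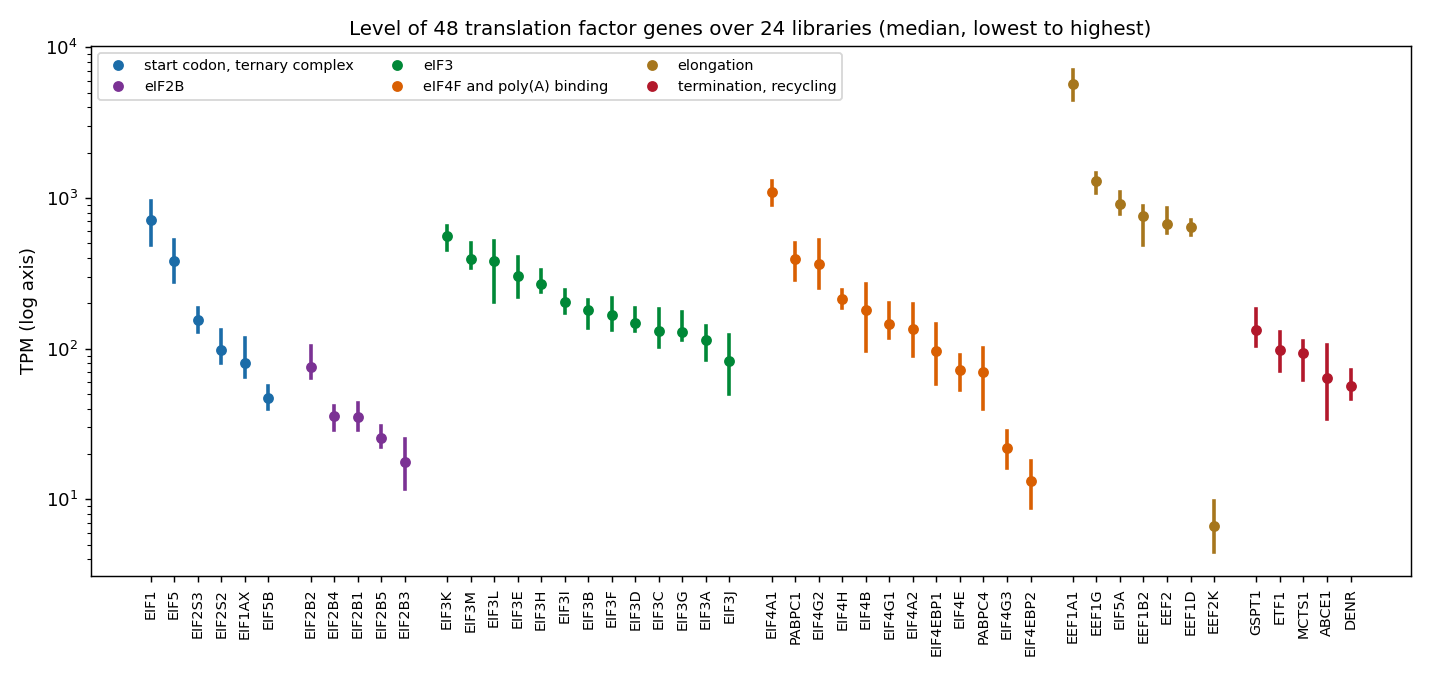
Level of each of the 48 genes in TPM (log axis), grouped and coloured by role and ordered by median within a role. Points are medians over 24 libraries and lines run from the lowest to the highest library, with EEF1A1 at the top and EEF2K at the bottom.

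Together the factors held 2.05 ± 0.0356% of all TPM in siFLuc mock cells at 8 h (mean ± SD, n = 3 here and for each group) and 1.90 ± 0.0507% under IFN. At 12 h these shares were 2.01 ± 0.122% in mock and 1.69 ± 0.0788% under IFN. With siBOP1 at 8 h they were 1.82 ± 0.0312% in mock and 1.70 ± 0.0472% under IFN. With siBOP1 at 12 h they were 1.78 ± 0.00555% in mock and 1.52 ± 0.0520% under IFN. The IFN libraries lay below all mock libraries of the same siRNA and time in each of these 4 pairs of groups. The share is weighted to the few abundant elongation factors and does not describe the low genes.

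Under IFN the factors that changed fell. In siFLuc cells 5 of the 48 fell at 8 h (background of all tested genes 5.07% lower, 5.77% higher) and 15 fell at 12 h (6.43% lower, 7.06% higher). In siBOP1 cells 7 fell at 8 h (9.11% lower, 5.99% higher) and 14 at 12 h (7.58% lower, 7.17% higher). No factor passed the limma test upward. In either direction 14, 22, 14 and 22 of the 48 had an unadjusted p under 0.05, beside 3659, 4239, 4486 and 4381 of all 16062 tested genes. The median log2 changes of the 48 were -0.13, -0.19, -0.14 and -0.18 (siFLuc 8 h and 12 h, siBOP1 8 h and 12 h), beside -0.09, -0.06, -0.14 and -0.08 over all tested genes. From the libraries numbered 1 and 2 alone, 11, 18, 14 and 21 fell and 1, 1, 1 and 0 rose, with backgrounds of 8.65%, 11.3%, 13.6% and 13.7% lower.

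Rescaling the libraries by median-of-ratios factors moved these counts to 4, 10, 3 and 9 lower, with 1 gene, EIF4A1, higher in siBOP1 cells at 8 h. It moved the median of all genes there by 0.13 and that of the factors to 0.01, so the sign of that median depends on the scaling. Over all genes it turned the split of higher and lower calls from 927 and 814 to 1128 and 532 (siFLuc 8 h), from 1134 and 1032 to 1374 and 804 (siFLuc 12 h), from 962 and 1464 to 1302 and 728 (siBOP1 8 h) and from 1152 and 1218 to 1417 and 868 (siBOP1 12 h). At 8 h the counts rested partly on single libraries: without the siFLuc mock library numbered 1 or the siFLuc IFN library numbered 2, 3 factors fell in siFLuc cells, and without the siBOP1 mock library numbered 1 or the siBOP1 IFN library numbered 2, 4 fell in siBOP1 cells.

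The overlap of the falling genes between the siRNAs was counted from comparisons that have no library in common. Both came from 1 fit over all 24 libraries with the same estimate of the spread per gene, so their calls are not independent. At 8 h EIF1, EIF3L, EIF4B, ETF1 and PABPC4 fell with both, which is 100% of the 5 in siFLuc cells and 71.4% of the 7 in siBOP1 cells. At 12 h 11 fell with both (73.3% of 15 and 78.6% of 14), namely EIF1, EIF3A, EIF3E, EIF3F, EIF3K, EIF3L, EIF4B, PABPC4, EEF1A1, EEF1B2 and EEF1G. Over all tested genes 593 fell with both at 8 h (72.9% of those with siFLuc and 40.5% of those with siBOP1) and 678 at 12 h (65.7% and 55.7%). Over the 4 IFN comparisons 29 factors passed in none, 7 in 1, 6 in 2, 2 in 3 and 4 in all, and these 4 were EIF1, EIF3L, EIF4B and PABPC4. The same pattern over all tested genes is not given here, so these counts do not show that the factors stand out.

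**Figure D2:**
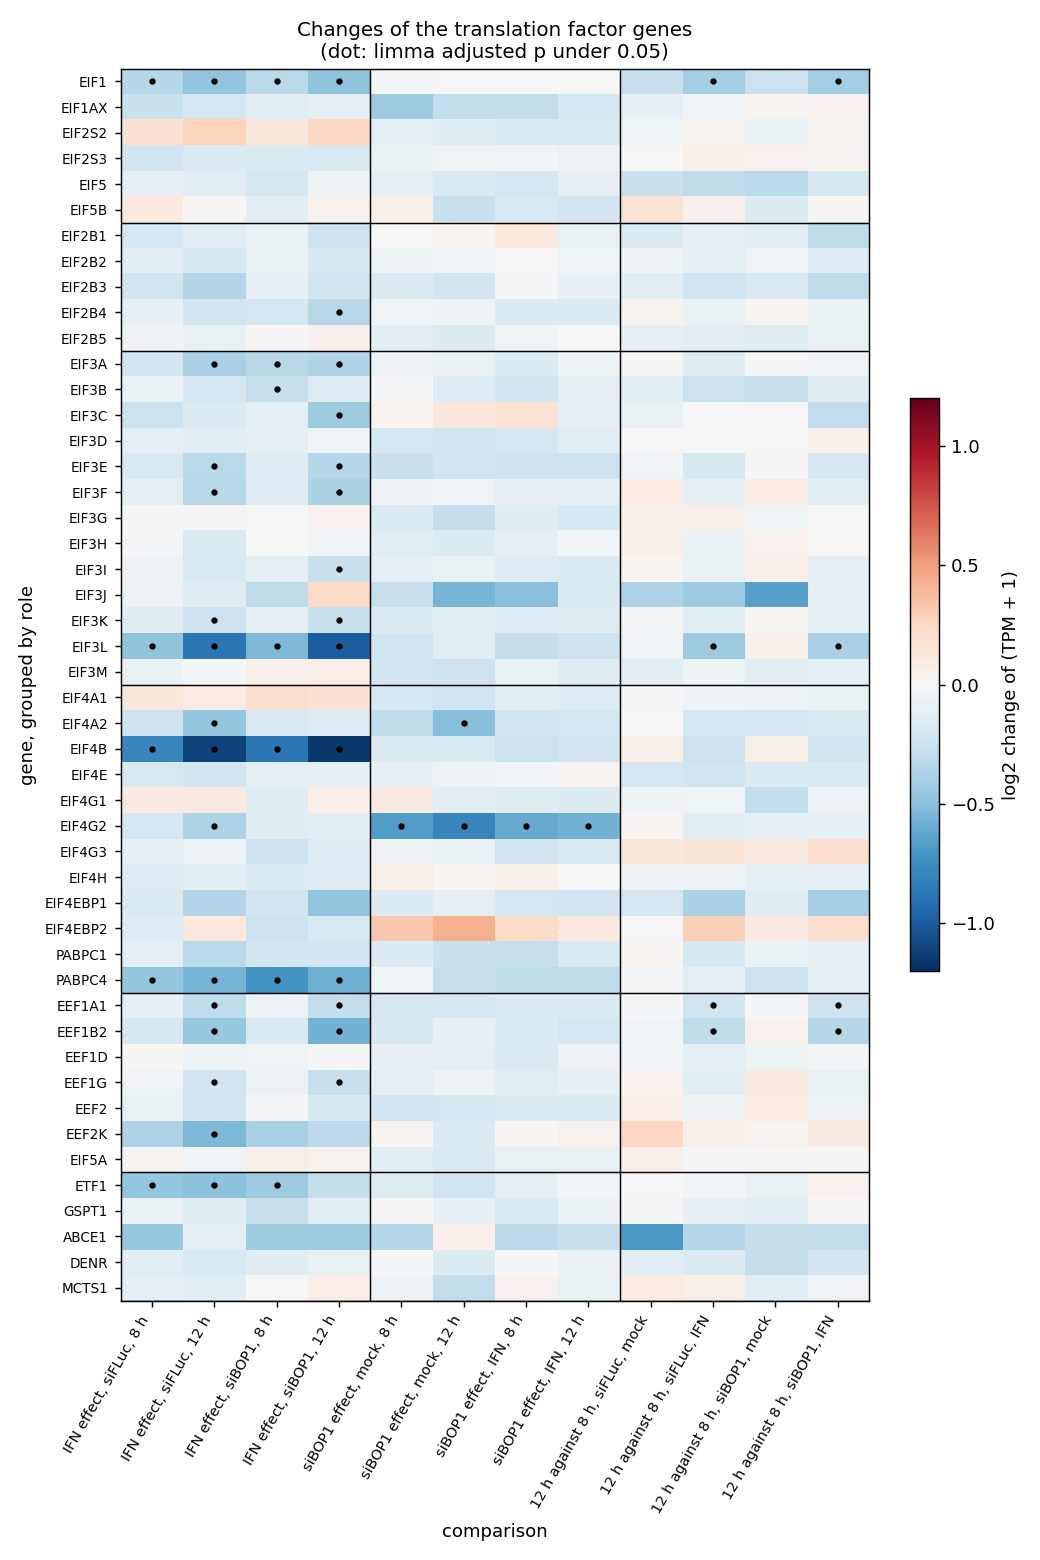
Log2 change of (TPM + 1) for the 48 genes (rows, grouped by role with lines between roles) in 12 comparisons (columns): 4 IFN, 4 siBOP1 and 4 of 12 h against 8 h. Blue is lower and red higher, and dots mark an adjusted p under 0.05, with the deepest blue for EIF4B and EIF3L in the IFN columns and dots for EIF4G2 in all 4 siBOP1 columns.

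Of the 12 genes of the cap-binding group 2 fell at 8 h with either siRNA, while at 12 h the counts were 4 (siFLuc) and 2 (siBOP1). Of all tested genes 5.07% and 9.11% were lower at 8 h, and 6.43% and 7.58% at 12 h (siFLuc and siBOP1). EIF4B (chr12:53006158-53042209, plus strand, GENCODE 29 on GRCh38), which stimulates the helicase eIF4A, had the largest change of all 48 factors. In siFLuc cells it measured 270.0, 266 and 219 TPM in mock and 145, 136 and 154 TPM under IFN at 8 h. At 12 h it measured 268, 259 and 262 TPM in mock and 116, 111 and 138 TPM under IFN. Each IFN library lay well below each mock library at both times. The siBOP1 cells gave 226, 231 and 209.7 TPM in mock and 124, 111 and 129.5 TPM under IFN at 8 h. Their values at 12 h were 236, 231 and 234 TPM in mock and 101, 96.6 and 115 TPM under IFN. The groups again did not overlap, and the fall amounted to 42.4% and 53.7% of the mock mean with siFLuc (8 h and 12 h), and 45.3% and 55.3% with siBOP1. The log2 changes were -0.79 (SE 0.0945, adjusted p = 3.00e-06), -1.11 (SE 0.0945, adjusted p = 1.37e-08), -0.87 (SE 0.0945, adjusted p = 6.81e-07) and -1.16 (SE 0.0945, adjusted p = 6.68e-09), and each passed in 14 of 14 alternative settings or left-out libraries.

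PABPC4 (chr1:39560816-39576790, minus strand), a cytoplasmic poly(A)-binding protein, fell in all 4 comparisons. In siFLuc cells it measured 100.5, 97.7 and 77.4 TPM in mock and 68.8, 62.7 and 66.7 TPM under IFN at 8 h. The 12 h values were 93.0, 85.9 and 91.1 TPM in mock and 57.9, 58.3 and 66.2 TPM under IFN. In siBOP1 cells the values were 94.0, 84.4 and 86.7 TPM in mock and 53.7, 47.4 and 59.0 TPM under IFN at 8 h. Those at 12 h were 77.6, 72.3 and 72.0 TPM in mock and 39.6, 51.0 and 57.6 TPM under IFN. The groups did not overlap in any of these, although the siFLuc mock library numbered 4 at 8 h stood nearer to the IFN libraries than the others did. Log2 changes were -0.46 (SE 0.119, adjusted p = 0.0134), -0.56 (SE 0.119, adjusted p = 0.00233), -0.72 (SE 0.119, adjusted p = 1.67e-04) and -0.59 (SE 0.119, adjusted p = 0.00139). The first did not pass without the siFLuc mock library numbered 1 (-0.39) or 2 (-0.41), without the IFN library numbered 2 (-0.42), or when the other groups were left out of the fit, and the others passed in 14 of 14 alternatives. The abundant PABPC1 did not pass in any of them, with log2 changes of -0.11, -0.32, -0.22 and -0.23 (siFLuc 8 h and 12 h, siBOP1 8 h and 12 h, an order kept from here on). At 12 h it stood at 442, 435 and 506 TPM in mock and 348, 365 and 389 TPM under IFN in siFLuc cells (adjusted p = 0.0524), so its groups did not overlap there.

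Other parts of the cap-binding machinery moved less. EIF4A2, the less abundant of the paired helicases, fell in siFLuc cells at 12 h, with 164, 163 and 198 TPM in mock and 138, 130.4 and 112 TPM under IFN and a log2 change of -0.46 (SE 0.117, adjusted p = 0.00979). It did not pass without the mock (-0.37) or the IFN (-0.38) library numbered 4, after rescaling, or with the other groups left out of the fit. EIF4G2, an eIF4G relative that lacks the eIF4E-binding part, fell in the same comparison, with a log2 change of -0.37 (SE 0.0849, adjusted p = 0.00485), from 522 to 405 TPM in the mean, a call that ended after rescaling. The helicase EIF4A1 had positive values, at 0.13, 0.10, 0.21 and 0.19, and did not pass. Neither did the core members EIF4E (-0.18, -0.22, -0.11 and -0.11) and EIF4G1 (0.10, 0.11, -0.15 and 0.08). At 12 h EIF4E stood at 65.6, 61.7 and 90.8 TPM in mock and 62.9, 52.8 and 69.6 TPM under IFN in siFLuc cells, and its groups overlapped. EIF4G1 stood at 135, 144 and 158 TPM in mock and 146, 161 and 164 TPM under IFN, overlapping as well.

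EIF4EBP1, which sequesters eIF4E, had negative log2 changes of -0.17, -0.35, -0.22 and -0.47, none past the threshold. In siBOP1 cells at 12 h it measured 92.4, 92.8 and 103 TPM in mock and 63.5, 58.4 and 88.4 TPM under IFN, without overlap (adjusted p = 0.0767). In siFLuc cells at 12 h it measured 92.2, 92.9 and 129.9 TPM in mock and 70.5, 68.3 and 111 TPM under IFN, where the IFN library numbered 4 reached into the mock range. This gene was among those that were higher in the libraries numbered 4 at 12 h, by a log2 difference of 0.46 (SE 0.0737), and its part in the IFN result was not tested. From the libraries numbered 1 and 2 alone it passed in siBOP1 cells at both times and in siFLuc cells at 12 h.

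**Figure D3:**
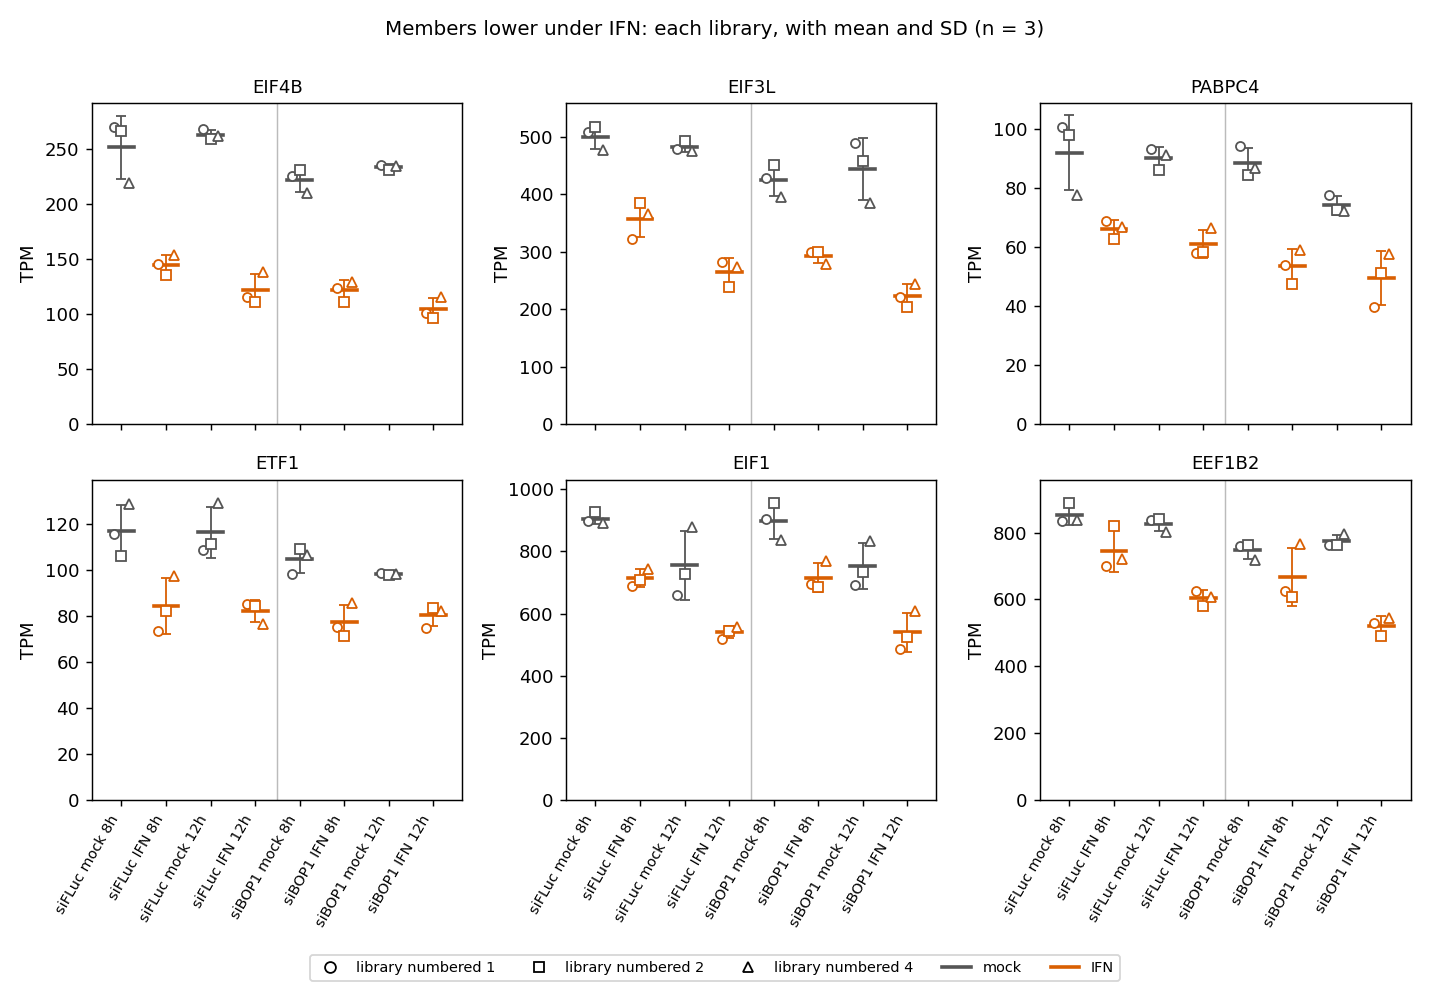
TPM of the 6 factors with the largest IFN changes in each of the 8 groups (x axis: siFLuc on the left of the line, siBOP1 on the right). Symbols are single libraries numbered 1, 2 and 4, bars are means and whiskers are SD (n = 3), grey for mock and orange for IFN. For EIF4B and EIF3L each IFN library lies below each mock library of its siRNA and time.

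Among the 13 eIF3 genes 1 fell at 8 h and 5 at 12 h with the control siRNA, and 3 and 7 with siBOP1. Of all tested genes 5.07%, 6.43%, 9.11% and 7.58% were lower (siFLuc 8 h and 12 h, siBOP1 8 h and 12 h). The eIF3 medians were -0.11, -0.18, -0.12 and -0.27, beside -0.09, -0.06, -0.14 and -0.08 over all tested genes. The complex bridges the small ribosomal subunit and eIF4G. EIF3L (chr22:37848868-37889407, plus strand), which pairs with EIF3K at one end of it, changed most. In siFLuc cells its level was 507, 517 and 476 TPM in mock and 323, 384 and 366 TPM under IFN at 8 h, and 478, 493 and 476 TPM in mock and 283, 238 and 274 TPM under IFN at 12 h. In siBOP1 cells it was 428, 451 and 395 TPM in mock and 299, 299 and 278 TPM under IFN at 8 h, and 489, 458 and 384 TPM in mock and 221, 203 and 244 TPM under IFN at 12 h. Mock and IFN libraries were apart each time, and every IFN library was lower at 12 h than any at 8 h with the same siRNA. Log2 changes were -0.49 (SE 0.0931, adjusted p = 0.00104), -0.87 (SE 0.0931, adjusted p = 5.38e-07), -0.54 (SE 0.0931, adjusted p = 3.01e-04) and -0.99 (SE 0.0931, adjusted p = 7.37e-08), each of which passed in 14 of 14 alternatives.

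At 12 h the scaffold subunit EIF3A fell, with log2 changes of -0.39 and -0.36 (siFLuc and siBOP1), and so did EIF3E with -0.33 and -0.34, EIF3F with -0.33 and -0.38 and EIF3K with -0.25 and -0.27. Those of EIF3K were near the threshold (adjusted p = 0.0493 and 0.0308) and passed in 6 and 8 of 14 alternatives. In siBOP1 cells EIF3A (-0.34) and EIF3B (-0.27), another core subunit, fell at 8 h, and EIF3C (-0.42, passing in 6 of 14 alternatives) and EIF3I (-0.27) at 12 h. Rescaling ended the calls of EIF3A and EIF3B at 8 h and of EIF3C, EIF3I and EIF3K at 12 h with siBOP1, and of EIF3K with siFLuc. Leaving the other groups out of the fit ended those of EIF3A, EIF3E, EIF3F and EIF3K at 12 h with siFLuc, of EIF3B at 8 h with siBOP1, and of EIF3A, EIF3C and EIF3K at 12 h with siBOP1. Without the siFLuc mock library numbered 4 or the siFLuc IFN library numbered 2 at 12 h EIF3E and EIF3F did not pass with siFLuc. Without the siBOP1 mock library numbered 1 or the siBOP1 IFN library numbered 2 at 8 h EIF3A and EIF3B did not pass, and EIF3B did not pass there without the mock library numbered 4 or the IFN library numbered 1 either. At 12 h with siBOP1 EIF3A did not pass without the IFN library numbered 1, nor EIF3E without the one numbered 2. EIF3D, EIF3G, EIF3H, EIF3J and EIF3M passed in none of the 4. At 12 h in siFLuc cells the log2 changes of the 13 subunits ran from -0.87 (EIF3L) to -0.013 (EIF3M).

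Of the 6 genes for start codon selection and the ternary complex only EIF1 passed, in all 4 comparisons. Its product keeps the ribosome scanning until a start codon is found. In siFLuc cells EIF1 (chr17:41688885-41692668, plus strand) measured 898, 925 and 892 TPM in mock and 689.6, 708 and 744 TPM under IFN at 8 h, and 659, 726 and 878 TPM in mock and 518, 545 and 557 TPM under IFN at 12 h. In siBOP1 cells it measured 903, 954 and 836 TPM in mock and 693, 684 and 768 TPM under IFN at 8 h, and 692, 734 and 834 TPM in mock and 485, 525 and 609 TPM under IFN at 12 h. The groups did not overlap, and at 12 h the mock library numbered 4 was the highest of its group with both siRNAs. Log2 changes were -0.34 (SE 0.0973, adjusted p = 0.0259), -0.47 (SE 0.0973, adjusted p = 0.00185), -0.33 (SE 0.0973, adjusted p = 0.0265) and -0.48 (SE 0.0973, adjusted p = 0.00142). With both siRNAs the 8 h calls ended after rescaling, and also when no filter on TPM was used. The 12 h call in siFLuc cells ended when the other groups were left out of the fit. The 8 h calls also rested on single libraries. In siFLuc cells the test failed without any 1 of 5 of the 6 libraries (-0.35 to -0.32), all but the IFN library numbered 4, and in siBOP1 cells without the mock or the IFN libraries numbered 1 or 2 (-0.32 to -0.28). EIF2S2, the beta subunit of eIF2, had positive values of 0.18, 0.27, 0.13 and 0.25 and did not pass. It was higher in the libraries numbered 4 by 0.28 at 8 h and 0.34 at 12 h, and from the libraries numbered 1 and 2 alone it passed upward in siFLuc cells at both times. EIF1AX, EIF2S3, EIF5 and EIF5B passed in none. Among the 5 eIF2B subunits EIF2B4 fell in siBOP1 cells at 12 h, with a log2 change of -0.34 (SE 0.0848, adjusted p = 0.00901), and no other subunit passed.

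Elongation factors did not pass at 8 h. At 12 h 4 of 7 fell with siFLuc and 3 with siBOP1, with medians of -0.23 and -0.27. Of all tested genes 6.43% and 7.58% were lower there, with medians of -0.06 and -0.08. EEF1B2 (chr2:206159585-206162928, plus strand), a nucleotide exchange subunit for eEF1A, changed most among those that passed with both siRNAs. In siFLuc cells it measured 837, 841 and 801 TPM in mock and 626, 580.0 and 609 TPM under IFN at 12 h, after 835, 887 and 837 TPM in mock and 699, 819.8 and 719.8 TPM under IFN at 8 h. In siBOP1 cells it measured 764, 762 and 794 TPM in mock and 531, 489.6 and 545 TPM under IFN at 12 h, after 759, 763 and 719 TPM in mock and 626, 607 and 767 TPM under IFN at 8 h. The 12 h groups were clearly apart, while at 8 h in siBOP1 cells the IFN library numbered 4 lay above every mock library. The 12 h log2 changes were -0.45 (SE 0.0787, adjusted p = 3.46e-04) and -0.57 (SE 0.0787, adjusted p = 1.98e-05), and both passed in 14 of 14 alternatives.

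EEF1A1 (chr6:73515750-73523797, minus strand) measured 6199.9, 6476 and 6856 TPM in mock and 5180.5, 5000.0 and 5587 TPM under IFN at 12 h with siFLuc. With siBOP1 it measured 5671, 5767 and 5566 TPM in mock and 4709, 4508 and 4755 TPM under IFN. These groups did not overlap, with log2 changes of -0.31 (SE 0.0649, adjusted p = 0.00215) and -0.28 (SE 0.0649, adjusted p = 0.00430), that is 19.3% and 17.8% less. At 8 h its values were 6389, 7077 and 6379 TPM in mock and 5761, 6620.0 and 6217 TPM under IFN in siFLuc cells, where the groups overlapped. The 12 h calls did not pass after median-of-ratios rescaling. The siFLuc call also ended when the other groups were left out of the fit, and the siBOP1 call with quantile normalization. EEF1G, the gamma subunit of the exchange complex, fell at 12 h, with log2 changes of -0.23 and -0.27. With both siRNAs its calls ended after rescaling and with quantile normalization. Its siFLuc call also ended when the other groups were left out of the fit.

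EEF2, the translocase, did not pass, with log2 changes of -0.08, -0.23, -0.02 and -0.19. At 12 h it stood at 759, 795 and 856 TPM in mock and 656, 647 and 759 TPM under IFN in siFLuc cells, where the highest IFN library, numbered 4, was level with the lowest mock library to the digits given. Its kinase EEF2K fell in siFLuc cells at 12 h, from 8.42, 8.02 and 9.74 TPM to 5.25, 5.60 and 6.22 TPM, with a log2 change of -0.54 (SE 0.168, adjusted p = 0.0367). That call failed without any 1 of 5 of the 6 libraries, all but the IFN library numbered 4, with log2 changes of -0.59 to -0.46, and EEF2K values in siBOP1 cells overlapped at 12 h (6.99, 8.35 and 7.68 TPM in mock, 4.50, 7.30 and 6.31 TPM under IFN). EIF5A, which helps ribosomes through stretches such as polyproline, stood at 943, 927 and 1051 TPM in mock and 965, 894 and 982 TPM under IFN in siFLuc cells at 12 h, and its log2 changes were 0.04, -0.04, 0.07 and 0.04. EEF1D passed in no comparison.

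ETF1, which encodes the release factor eRF1 that reads stop codons, was the only one of the 5 termination and recycling genes to pass. In siFLuc cells it measured 115, 106 and 129 TPM in mock and 73.6, 82.2 and 97.4 TPM under IFN at 8 h, and 109, 111 and 129 TPM in mock and 85.2, 84.1 and 76.7 TPM under IFN at 12 h. In siBOP1 cells it measured 98.0, 109 and 107 TPM in mock and 75.0, 71.4 and 85.4 TPM under IFN at 8 h, and 98.7, 97.7 and 98.0 TPM in mock and 74.9, 83.4 and 82.3 TPM under IFN at 12 h. The groups were apart in all 4 pairs. Log2 changes were -0.47 (SE 0.101, adjusted p = 0.00341), -0.49 (SE 0.101, adjusted p = 0.00170) and -0.43 (SE 0.101, adjusted p = 0.00518), and -0.29 (SE 0.101, adjusted p = 0.0601) in siBOP1 cells at 12 h, where the threshold was not reached. The first call ended when the other groups were left out of the fit and the third ended after rescaling. ETF1 was also higher in the libraries numbered 4 at 8 h, by 0.20. Its partner GSPT1 (eRF3), the recycling ATPase ABCE1 and the recycling factors DENR and MCTS1 did not pass. The ABCE1 values were -0.45, -0.11, -0.43 and -0.43. In siFLuc cells at 12 h ABCE1 measured 79.4, 76.7 and 34.3 TPM in mock and 59.2, 54.7 and 51.4 TPM under IFN, where the mock library numbered 4 was the lowest of all 6. From the libraries numbered 1 and 2 alone ABCE1 was called lower in all 4 IFN comparisons.

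Factors with and without a tract at any annotated start were counted apart. In siFLuc cells at 12 h 6 of the 10 factors with a tract fell (median log2 change -0.28) and 5 of the 28 without (-0.16). In siBOP1 cells at 12 h 5 of 10 fell (-0.23) and 5 of 28 (-0.15). At 8 h 1 of 10 fell with either siRNA, beside 2 of 28 (siFLuc) and 3 of 28 (siBOP1). The 10 factors with no entry in the promoter table belong to neither class. At 12 h 4 of them fell with either siRNA, with medians of -0.33 (siFLuc) and -0.29 (siBOP1). These medians lay below those of the factors with a tract, so the split does not cover all factors that fell. Across all tested genes in the same promoter table, at 12 h 71 of 813 with a tract and 725 of 10176 without fell with siFLuc, and 83 and 854 with siBOP1. The split depended on the processing, by settings applied to it after seeing the data. Rescaling left 3 of 10 and 3 of 28 with siFLuc, and 3 of 10 and 2 of 28 with siBOP1. Fits restricted to the groups compared left 2 of 10 and 2 of 28 (siFLuc) and 4 of 10 and 4 of 28 (siBOP1). From the libraries numbered 1 and 2 alone 7 of 10 and 6 of 28 fell with siFLuc, but 5 of 10 and 11 of 28 with siBOP1, where the medians were -0.19 with and -0.20 without a tract. No test was made of this split, since the factors were chosen with earlier results of these data known. 

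**Figure D4:**
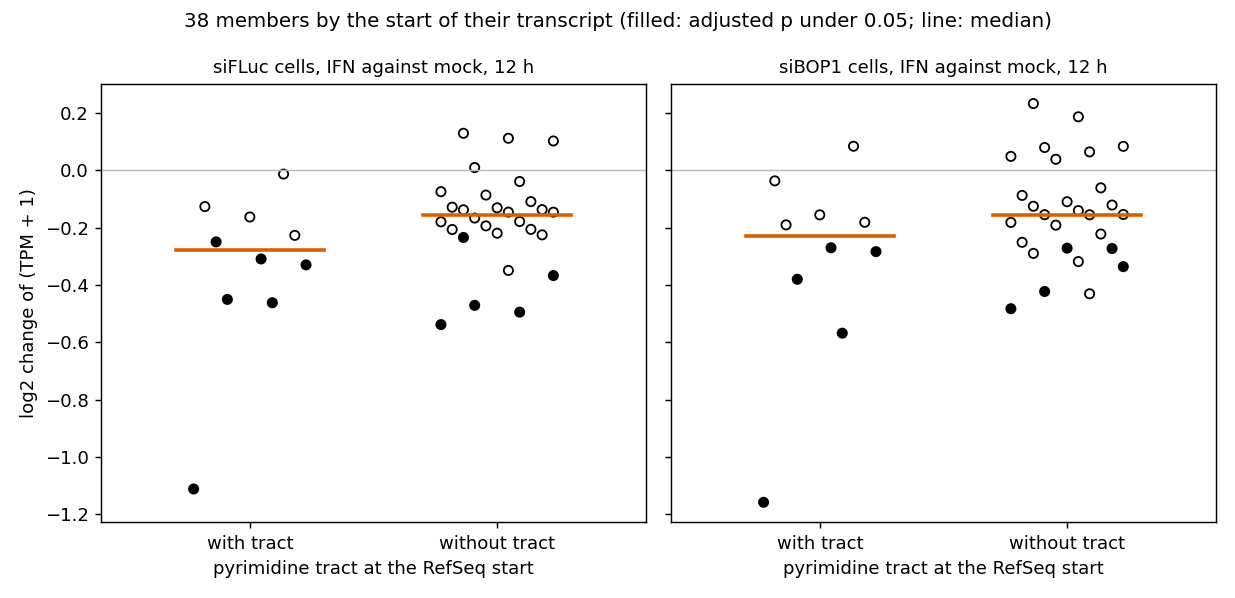
Log2 change under IFN at 12 h for the 38 factors in the promoter table, in siFLuc (left) and siBOP1 (right) cells. They are split by whether any annotated start has a pyrimidine tract, and the 10 factors with no entry in the promoter table are not shown. Each point is a gene, filled where its adjusted p was under 0.05, and lines are medians (-0.28 with and -0.16 without a tract in siFLuc cells).

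Whether the BOP1 siRNAs changed the response to IFN was tested as an interaction. No factor passed at 8 h or 12 h (background 0% at both times), and none had an unadjusted p under 0.05, while 353 genes at 8 h and 259 at 12 h did over the whole table. Estimates for the factors ran from -0.26 to 0.14 at 8 h and from -0.32 to 0.38 at 12 h. For EIF4B the difference between the siRNAs was -0.08 (SE 0.134) at 8 h and -0.05 (SE 0.134) at 12 h, and for EIF3L -0.05 and -0.12 (SE 0.132). A p that misses the threshold does not show that the responses were alike, and genes that passed with 1 siRNA alone, such as EEF2K, EIF4A2, EIF3C or EIF2B4, are not shown to differ between the siRNAs.

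From 8 h to 12 h the same 4 factors fell under IFN with either siRNA in the fit over all libraries. In mock cells no factor passed with limma, either with siFLuc (background 0.0125% lower, 0.118% higher) or with siBOP1 (0.0934% lower, 0.137% higher). There 3 and 6 factors (siFLuc and siBOP1) had an unadjusted p under 0.05, beside 2067 and 1549 of all 16062 tested genes. Under IFN 4 fell with siFLuc (0.697% lower, 2.83% higher) and 4 with siBOP1 (0.511% lower, 2.45% higher), namely EIF1, EIF3L, EEF1B2 and EEF1A1. Log2 changes from 8 h to 12 h in siFLuc cells were -0.40, -0.43, -0.30 and -0.24 (adjusted p = 0.0262, 0.0141, 0.0386 and 0.0466). In siBOP1 cells they were -0.41, -0.39, -0.35 and -0.24 (adjusted p = 0.0256, 0.0260, 0.0201 and 0.0453). EIF1 was also lower at 12 h in mock cells, without passing, with log2 changes of -0.27 (adjusted p = 0.244) and -0.25 (adjusted p = 0.375).

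The time calls rested on single libraries. Left-out libraries brought the count of 4 to 0 in siFLuc cells (without the IFN 8 h library numbered 2 or 4, or the IFN 12 h library numbered 2) and to 1 (without the IFN 12 h library numbered 1 or 4). In siBOP1 cells it came to 0 (without the IFN 8 h library numbered 4 or the IFN 12 h library numbered 2), to 1 (without the IFN 8 h library numbered 2 or the IFN 12 h library numbered 1) and to 2 (without the IFN 8 h library numbered 1). From the libraries numbered 1 and 2 alone 3 and 2 factors fell in mock cells (siFLuc and siBOP1, backgrounds 0.741% and 0.679% lower) and 8 and 7 under IFN (1.72% and 2.07%). A test of whether the IFN effect differed between 8 h and 12 h was added after the data were seen. The test called no factor (background 0.00623% in siFLuc cells and 0% in siBOP1 cells). It gave 4 and 6 factors an unadjusted p under 0.05, beside 575 and 603 of all 16062 tested genes. Its largest estimates below 0 were those of EIF3L, -0.38 (SE 0.132) and -0.45. The higher counts at 12 h thus do not show that any factor's IFN effect differed between the times. Rescaling changed the split of all genes under IFN from 455 higher and 112 lower to 343 and 320 (siFLuc) and from 393 and 82 to 268 and 307 (siBOP1), and quantile normalization to 261 and 268 and to 214 and 165. In mock cells rescaling turned 19 and 2 to 20 and 13 (siFLuc) and 22 and 15 to 21 and 29 (siBOP1), and quantile normalization to 13 and 10 and to 20 and 23.

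Few factors passed the test for the BOP1 siRNAs themselves, although most estimates were below 0. EIF4G2 was the one that fell in every setting of treatment and time. Counts lower were 1 in mock cells at 8 h (background 0.666% lower, 1.49% higher), 2 in mock cells at 12 h (0.697% lower, 0.903% higher), 1 under IFN at 8 h (0.76% lower, 1.25% higher) and 1 under IFN at 12 h (0.268% lower, 0.392% higher), and no factor rose. Unadjusted p under 0.05 was reached by 13, 17, 15 and 11 factors in either direction, beside 2076, 2051, 2191 and 1444 of all 16062 tested genes. Medians over the 48 were -0.12, -0.16, -0.16 and -0.14, beside 0.03, 0.0026, -0.01 and -0.01 over all genes, and 41, 42, 41 and 44 of the 48 estimates were below 0. The libraries numbered 1 and 2 alone gave 4, 2, 4 and 1 lower (backgrounds 0.903%, 0.791%, 1.36% and 0.33%). In mock cells at 8 h the all-gene split of 240 higher and 107 lower became 202 and 152 after rescaling and 227 and 168 after quantile normalization. These comparisons use the same mock and IFN libraries as the IFN comparisons.

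EIF4G2 (chr11:10797050-10809110, minus strand), the eIF4G relative that supports initiation apart from the cap-binding eIF4E, measured 505, 509.7 and 529 TPM in siFLuc mock cells and 323, 337 and 309 TPM in siBOP1 mock cells at 8 h. At 12 h in mock cells it measured 531, 508 and 528 TPM with siFLuc and 342, 313 and 253 TPM with siBOP1. Under IFN it stood at 446, 429.8 and 461 TPM with siFLuc and 313, 289 and 276 TPM with siBOP1 at 8 h, and at 438, 391 and 386 TPM and 262, 275 and 281 TPM at 12 h. Every siBOP1 library lay below every siFLuc library of its treatment and time. Its log2 changes were -0.67 (SE 0.0849, adjusted p = 1.57e-04), -0.80 (SE 0.0849, adjusted p = 1.84e-05), -0.61 (SE 0.0849, adjusted p = 4.22e-04) and -0.57 (SE 0.0849, adjusted p = 0.00188), falls of 37.3%, 42.0%, 34.3% and 32.7%. No left-out library ended a call, but a fit restricted to the 6 libraries compared did so for the last 3 (adjusted p = 0.147, 0.0555 and 0.224).

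EIF4A2 fell with the BOP1 siRNAs in mock cells at 12 h, from 164, 163 and 198 TPM to 131, 119 and 116 TPM, with a log2 change of -0.51 (SE 0.117, adjusted p = 0.0288). It passed in 6 of 14 alternatives and failed when any library of both groups but the siFLuc library numbered 2 was left out (-0.56 to -0.42). In the other 3 comparisons its log2 changes were -0.30, -0.23 and -0.21 without passing. EIF3J had values of -0.56 in mock cells at 12 h and -0.50 under IFN at 8 h (adjusted p = 0.0886 and 0.115), and EIF4EBP2 had the largest positive one, 0.43 in mock cells at 12 h (adjusted p = 0.166).

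**Figure D5:**
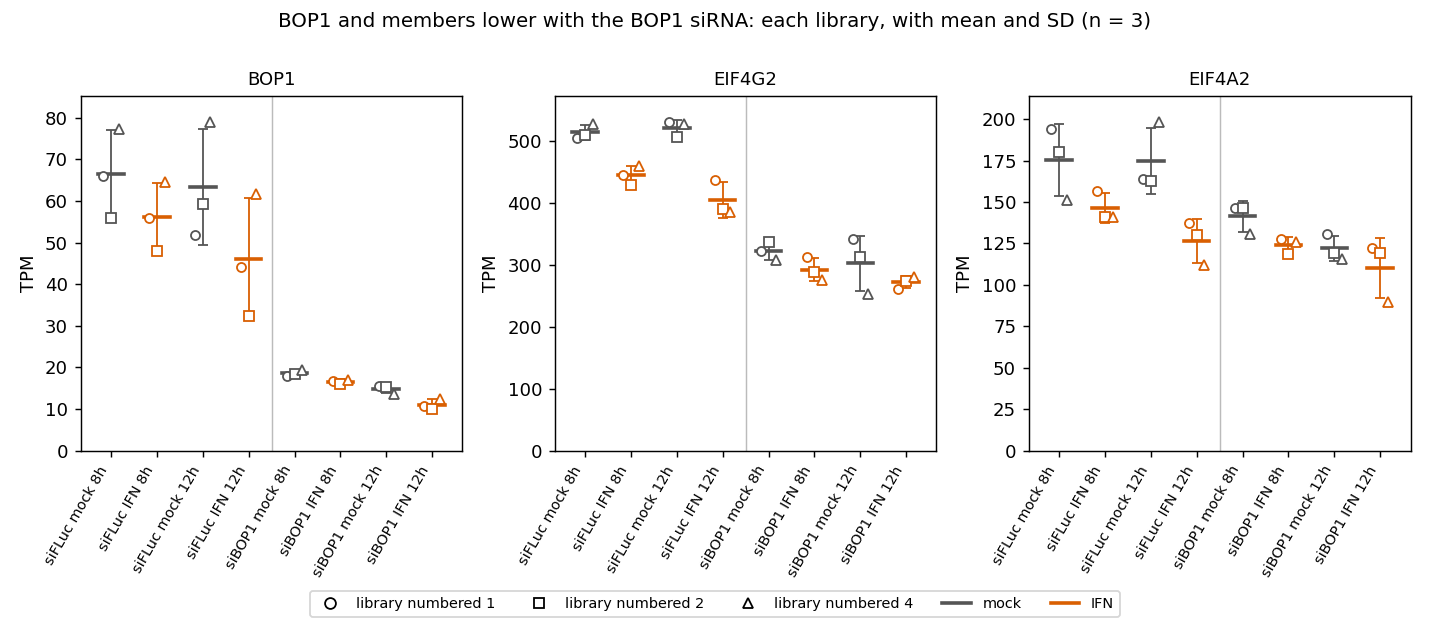
TPM of BOP1, EIF4G2 and EIF4A2 in each of the 8 groups, siFLuc left and siBOP1 right of the line. Symbols are single libraries numbered 1, 2 and 4, bars are means, whiskers SD (n = 3), grey mock and orange IFN. Every siBOP1 library lies below every siFLuc library of its treatment and time for BOP1 and EIF4G2.

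Genes lower with the BOP1 siRNAs often carried the 7-mer GCCAGTT in their 3′ UTR, a word already seen in an earlier analysis of these libraries. In the longest annotated 3′ UTR per gene (GENCODE 29, GRCh38, transcript strand only) it was held by 61 of the 96 genes that fell in mock cells at 8 h and have one (63.5%), against 11.5% of the other tested genes. For mock cells at 12 h the share was 62.1%, for IFN at 8 h 57.1% and for IFN at 12 h 65.8%, against 11.5%, 11.5% and 11.7% of the others. Since the word was known from these same libraries beforehand, the shares describe it and are not a separate test of it. Among the 48 factors 5 hold it, once each, a share near the 11.5% of the other tested genes. The sites are shown because EIF4G2, the factor lower in all 4 comparisons, is 1 of these 5, with the 7-mer in capitals.
EIF4G2, chr11:10797500-10797528, minus strand: ccttctttgctGCCAGTTatcataggctg
EIF3F, chr11:7997308-7997336, plus strand: ttttgggagtaGCCAGTTaatatcaactt
EEF1A1, chr6:73517016-73517044, minus strand: gtaagctttatGCCAGTTtgatggtttca
EEF2K, chr16:22286150-22286178, plus strand: gactcatcataGCCAGTTttccttttgaa
ABCE1, chr4:145127703-145127731, plus strand: taacataaaaaGCCAGTTgggttctaaat
The EIF4G2 site begins at base 299 of a 3′ UTR of 766 bases. The other 4 did not pass in any siBOP1 comparison, with log2 changes of -0.06, -0.05, -0.10 and -0.10 for EIF3F (mock 8 h and 12 h, IFN 8 h and 12 h), -0.20, -0.20, -0.17 and -0.17 for EEF1A1, 0.04, -0.16, 0.02 and 0.06 for EEF2K and -0.34, 0.06, -0.31 and -0.26 for ABCE1. EIF4A2, which fell in mock cells at 12 h, holds no copy. The sequences of the siRNAs were not used here, and what links the 7-mer to the lower levels was not tested. With 1 pool against BOP1 in the design, loss of BOP1 and other effects of that pool cannot be told apart.

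The libraries numbered 4 differed from those numbered 1 and 2 in some of the same genes. With the group held fixed, 7 factors were higher and 1 lower in them at 8 h (background 8.8% higher, 9.26% lower), and 14 higher and 0 lower at 12 h (27.2% higher, 7.72% lower). The medians of the 48 were 0.02 and 0.11, beside -0.01 and 0.12 over all genes. At 12 h EIF4EBP1 (0.46) and EIF5 (0.45) differed most, and EIF1 (0.23) and EIF3F (0.18) were among the 14 as well as among the genes that fell under IFN. ETF1, which fell under IFN at 8 h, was among the 7. EIF4B, EIF3L, PABPC4, EEF1B2 and EEF1A1 were not called at either time. In EEF2 the difference turned sign, lower at 8 h (-0.18) and higher at 12 h (0.17). What set these libraries apart was not tested.

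Of 59 other genes tied to translation, 57 were tested. In the 4 IFN comparisons 2, 4, 3 and 3 of them rose (background of all tested genes 5.77%, 7.06%, 5.99% and 7.17% higher). In the same comparisons 4, 5, 8 and 6 fell (background 5.07%, 6.43%, 9.11% and 7.58% lower). The largest rises were those of EIF2AK2, the PKR kinase that phosphorylates eIF2 on sensing double-stranded RNA, with log2 changes of 2.78, 2.56, 2.77 and 2.60. In siFLuc cells at 12 h EIF2AK2 went from 24.2, 25.0 and 35.2 TPM to 164, 156 and 187 TPM. GTPBP1, an eEF1A-related GTPase, rose by 2.16, 1.92, 2.22 and 2.03, and at 12 h in siFLuc cells stood at 13.9, 15.2 and 15.8 TPM in mock and 59.5, 66.1 and 53.9 TPM under IFN. AKT1S1, an inhibitory partner of mTORC1 (PRAS40), fell in all 4 comparisons, with log2 changes of -0.36, -0.34, -0.56 and -0.42. Those that fell in 3 of the 4 were MKNK2, a kinase for eIF4E (-0.49, -0.39, -0.75 and -0.56, not passing in siFLuc cells at 12 h), HBS1L, a ribosome rescue factor (-0.38, -0.44, -0.58 and -0.76, not in siFLuc cells at 8 h), and EIF4E3, an eIF4E relative (-0.47, -0.56, -0.33 and -0.43, not in siBOP1 cells at 8 h). With the BOP1 siRNAs RPS6KB2, an S6 kinase, fell at 8 h in mock cells (-0.56) and under IFN (-0.57), and no other gene of the 57 passed in any of those 4 comparisons. Medians over the 57 under IFN were -0.09, -0.10, -0.17 and -0.09, beside -0.09, -0.06, -0.14 and -0.08 over all tested genes.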

How the data were processed

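RNA of 24 A549 libraries (8 groups of 3) was sequenced from a stranded mRNA kit, per the labels' protocols. The authors deposited 1 table of TPM (transcript abundance corrected for length) per gene, and the aligner, counter, genome build and annotation are not given in the sources used here. TPM keeps no depth, so no counting interval could be given, and each column sums to 1000000, so values are relative. Columns are numbered 1, 2 and 4 while the labels number replicates 1 to 3, so columns numbered 4 (8 of them) were assigned to their group only. The labels do not say that replicates are separate cultures, and p-values measure the spread between these samples, which may be technical.

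Log2(TPM + 1) of genes that reached 1 TPM in 3 or more libraries (16062 of 60609 rows) was fitted with limma 3.58.1 (R 4.3.3, trended eBayes, 1 mean per group over all 24 libraries), with Benjamini-Hochberg adjustment over all tested genes and a threshold of 0.05. All 48 members were tested. The members, role groups and the list of other translation genes were chosen with earlier results of these data known. Values in every library are given for the 6 members with the largest mean IFN change among those called in at least 2 IFN comparisons, up to 4 each by the same measure for the siBOP1 comparisons (called in at least 1) and the time comparisons (called in at least 2), and EIF4EBP1, EIF4E, EIF4G1, EEF1A1, EEF2, EEF2K, PABPC1 and EIF5A. ABCE1 was added after its values were seen. Other translation genes are named where called in at least 3 IFN or 2 siBOP1 comparisons. The comparison of the IFN effect between times was added after seeing the data. Alternatives were a pseudocount of 0.1, no filter, a mean of at least 5 TPM, median-of-ratios rescaling, quantile normalization, a fit restricted to the groups being compared, a replicate block, the libraries numbered 1 and 2 only, and each library left out in turn.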

Additional observations from a re-analysis of the deposited data

How the results depend on the processing

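TPM is relative and its depth unknown, so small differences of the low members (EEF2K, EIF4EBP2) cannot be given a counting error, and 3 libraries a group limit every test. Of 39 calls of single named genes none changed direction. All 39 kept their call with a pseudocount of 0.1 and with a mean of at least 5 TPM, while 1 was lost with the replicate block, 3 with the libraries numbered 1 and 2 only, 5 with quantile normalization, 8 with rescaling, 9 with no filter and 18 when the other groups were left out of the fit. Of the fits leaving out 1 library, 175 kept a call and 59 lost it.

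Counts of called factors follow the order of the report, siFLuc before siBOP1 and 8 h before 12 h for IFN (5, 15, 7 and 14), and mock before IFN for siBOP1 (1, 2, 1 and 1). For IFN, rescaling gave 4 in siBOP1 cells at 8 h (3 of them lower) and 9 at 12 h (4.53% and 5.40% of all genes lower). Quantile normalization gave 13, 21, 14 and 19 (backgrounds 5.91%, 9.70%, 7.91% and 10.7% lower). The groups compared alone gave 3, 6, 7 and 11 (2.71%, 1.76%, 9.43% and 4.19%). The libraries numbered 1 and 2 gave 12 and 15 at 8 h (siFLuc and siBOP1, 11 and 14 of them lower). For siBOP1, rescaling gave 2 at 8 h and 1 at 12 h in mock cells, quantile normalization 3 and 4, no filter 1 in mock cells at 12 h, the groups compared alone 0 in the last 3, and the libraries numbered 1 and 2 gave 4 at 8 h in mock and IFN cells. For 12 h against 8 h, siFLuc mock (0) gave 3 and siBOP1 mock (0) 2 with the libraries numbered 1 and 2, and siBOP1 mock 1 with rescaling. Under IFN (4 each), siFLuc and siBOP1 gave 1 and 2 with no filter, 7 and 10 with rescaling, 2 and 2 with quantile normalization, 0 and 0 with only the groups compared and 8 and 7 with the libraries numbered 1 and 2. The cause of these shifts was not tested.

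With 1 library left out, counts ran from 3 to 6, 11 to 17, 4 to 8 and 11 to 14 for IFN, 1 to 3 for siBOP1 in mock cells at 12 h and 1 to 1 for the others, 0 to 4 (siFLuc) and 0 to 3 (siBOP1) for time under IFN, and 0 to 0 for time in mock cells and all interactions. The median of the factors turned from below to above 0 for IFN in siBOP1 cells at 8 h after rescaling (0.0069), and for 12 h against 8 h in siFLuc mock cells without the mock 12 h library numbered 1 (0.0056) or 2 (0.0083), against -0.0702 without the one numbered 4.

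The labels tie the numbers 1 and 2 alone to columns, so the numbers were not taken to pair samples. Deviations of same-numbered libraries correlated at r from 0.115 to 0.508 across genes. With the replicate block the counts were 10, 24, 13 and 22 for IFN (10, 23, 12 and 20 of them lower, backgrounds 12.7%, 15.8%, 20.4% and 16.6% lower). For siBOP1 they were 7, 12, 4 and 1 (7, 11, 4 and 1 of them lower, backgrounds 2.58%, 3.35%, 3.84% and 1.61% lower). For 12 h against 8 h they were 3, 12, 11 and 10 (siFLuc mock, siFLuc IFN, siBOP1 mock and siBOP1 IFN), with 3, 12, 10 and 10 of them lower. The backgrounds there were 2.85%, 5.90%, 3.97% and 5.84% lower. The block was set within each time. Its time estimates therefore compare 12 h at the level of the library numbered 1 with 8 h at the level of the library numbered 4. These time counts mix time with library number and do not show changes between the times.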
